A study of Mus musculus with 11 samples.

Results

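The transcriptional effect of 17β-estradiol (E2) on the fibrocartilage that covers the mandibular condyle of the mouse jaw was compared between animals with and without estrogen receptor alpha. For each gene, the change from placebo to E2 in the estrogen receptor alpha knockout (KO) was subtracted from the change in wild type (WT), and this difference of 2 changes was tested in 1 model over all 11 libraries of the series. The comparison was made for 14531 of the 23420 gene symbols in the count table, the others having too few counts, and 167 genes were called at an adjusted p under 0.05 (1.15% of those tested). A positive value means that E2 moved the gene further up, or less far down, in WT than in KO.

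All animals were C57BL/6 females, ovariectomized at 6 weeks of age and given a pellet for 1 week, and the tissue was taken at 7 weeks. The 4 groups were WT with placebo (2 libraries), WT with E2 (3), KO with placebo (3) and KO with E2 (3), the E2 pellet holding 0.01 mg for release over 60 days. Every group therefore lacks ovaries, and the placebo groups have no ovarian estrogen. The labels call the source all cells of the tissue, do not say which part of the receptor gene was removed, and do not tie libraries to animals. The p-values therefore reflect the spread over these libraries, part of which may be technical.

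Estrogen receptor alpha is a nuclear receptor that binds E2 and then acts on genes through DNA elements or through other transcription factors. Its gene, Esr1, is 1 of 2 classical estrogen receptor genes, so a tissue without it can still carry the beta receptor. The gene of the beta receptor, Esr2, had too few counts in these libraries to be tested. The fibrocartilage of the condyle has a fibrous surface with progenitor cells above chondrocytes, which mature toward the bone beneath. In bone marrow, E2 is known to suppress the formation of B cells.

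Levels are given in CPM, the count per M of the TMM-scaled library total. Library totals ran from 15.7 to 25.5 M counts, and 3 counts, used as the floor, equal 0.118 to 0.204 CPM. The transcript Rn45s, a ribosomal RNA precursor, took 16.04% of the counts of WT placebo 2 against 1.83% to 3.13% in the other libraries. Esr1 stood at 13.4 and 6.6 CPM in WT placebo, at 7.89, 6.76 and 6.43 in WT E2, at 4.86, 3.99 and 2.68 in KO placebo and at 3.41, 2.55 and 3.75 in KO E2. All 6 KO libraries lay below all 5 WT libraries for Esr1, but reads remained, and counts per gene cannot show whether these come from outside the deleted part. Its interaction was not called (log2 -0.28, SE 0.41, adjusted p = 0.894 by edgeR's quasi-likelihood test). The markers of the tissue were present throughout: Col2a1, the main cartilage collagen, was between 3706 and 14720 CPM in the 11 libraries.

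The called genes split into 45 positive (0.31% of tested genes) and 122 negative (0.84%). Within the same model, E2 changed 225 genes in WT (1.55%), of which 95 rose (0.654%) and 130 fell (0.895%). In KO it changed 396 genes (2.73%), 343 rising (2.36%) and 53 falling (0.365%), and with a replicate block 629 genes were called there. Both genotypes shared 22 called genes, 10 of them changed in the same direction. A call in 1 genotype alone was often no call for the difference: of the 203 genes called in WT and not in KO, 82 (40.4%) were called for the difference itself, and of the 374 called in KO and not in WT, 52 (13.9%). The median SE of the interaction was 0.206 on the log2 scale, against 0.154 for the WT effect and 0.137 for the KO effect, so the difference of the 2 effects was measured less precisely than either.

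**Figure D1:**
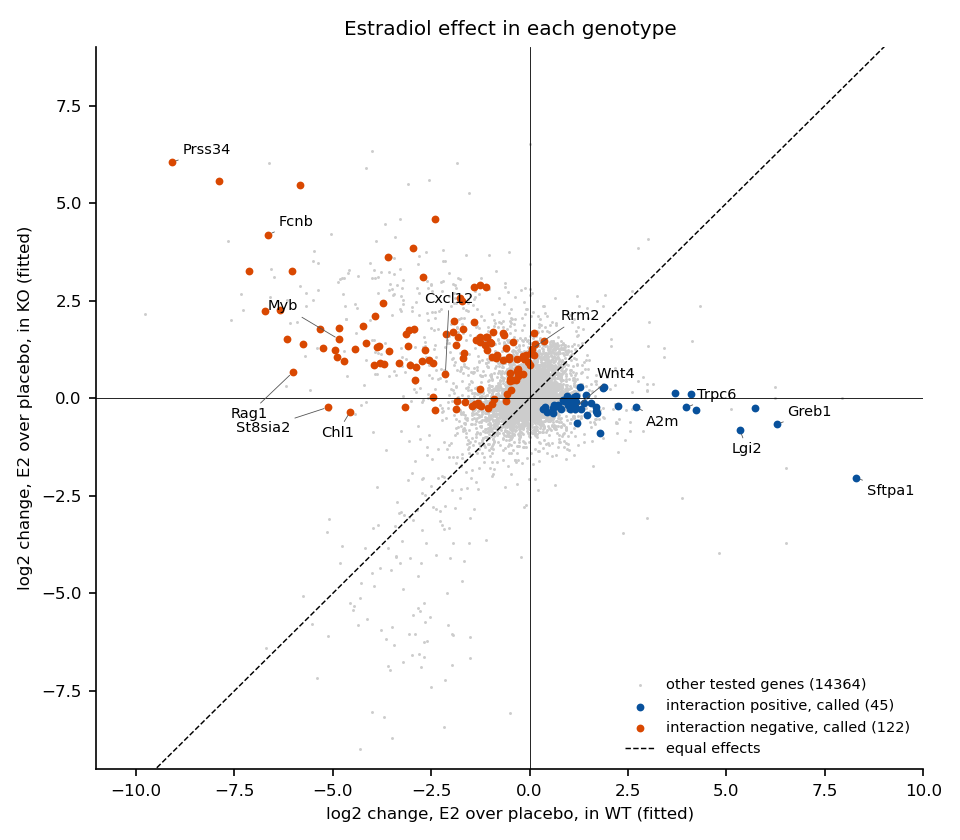
Fitted log2 change from placebo to E2 in WT (x axis) and in KO (y axis) for each of the 14531 tested genes, with 45 positive and 122 negative interaction genes coloured. The positive genes lie to the right at a KO change near 0, whereas the negative genes spread over the upper left, where E2 lowered the level in WT, raised it in KO, or did both.

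The promoters of the called genes were searched for 3 motifs on both strands, in RefSeq sequences of GRCm38.p6 running from 250 bases before to 50 bases after the gene's start. A promoter was matched by symbol for 36 of the 45 positive and 102 of the 122 negative genes, and for 11472 of all tested genes. The full estrogen response element, GGTCANNNTGACC, was in 0 of 36, 0 of 102 and 1 of 11472 of these windows (0.00872%). With at least 9 of its 10 fixed bases matched it was in 1 positive gene (2.78%), 2 negative genes (1.96%) and 0.846% of all. The E2F site (TTTCCCGC or TTTGGCGC), the element of a family of cell cycle factors, was in 0 of 36 positive and 5 of 102 negative genes (4.90%) against 3.23% of all. Of the 44 matched negative genes whose KO effect alone was called, 4 held it (9.09%). The site of the B cell and stromal factor EBF, TCCCNNGGGA, was in 1 positive gene (2.78%), 3 negative genes (2.94%) and 1.28% of all. A match is only a string of letters, and distant elements were not searched.

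The near matches to the estrogen response element are shown because this is the receptor's own motif, and the E2F sites because E2F2 is itself a called gene. The motif is in capitals, with flanking bases in lower case, on the strand of the gene and upstream of its start. Only matches wholly upstream of the start are shown, which leaves out the E2F sites of E2f2 and 2810417H13Rik. The EBF matches are not shown. Lifr encodes the receptor of leukemia inhibitory factor, Ccdc3 a secreted protein, Mcpt8 a basophil protease, Nup210 a nuclear pore protein, Cdca7 a replication-linked chromatin factor and Xrcc6 the Ku70 subunit of DNA repair.
Lifr, chr15:7140333-7140373, + strand, motif first base 195 before the start: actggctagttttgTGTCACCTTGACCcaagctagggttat
Ccdc3, chr2:5137746-5137775, + strand, motif first base 16 before the start: cggggcgaaggcccGGTCATGGTGATCcag
Mcpt8, chr14:56085356-56085396, - strand, motif first base 185 before the start: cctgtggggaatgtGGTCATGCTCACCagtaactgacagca
Cdca7, chr2:72476134-72476169, + strand, motif first base 71 before the start: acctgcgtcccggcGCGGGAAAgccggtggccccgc
Xrcc6, chr15:82016309-82016344, + strand, motif first base 46 before the start: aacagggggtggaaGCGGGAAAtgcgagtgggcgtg
Nup210, chr6:91116881-91116916, - strand, motif first base 76 before the start: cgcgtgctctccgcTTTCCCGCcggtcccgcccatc

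The 45 positive genes were higher with E2 in WT and showed small changes in KO. All 45 had a WT change above 0, with a median of 1.22 on the log2 scale, and in 40 this change was called. The KO change was called in 0 of the 45, its median was -0.22, and it was under 0.5 in absolute size in 40. In 42 of the 45, all 3 WT E2 libraries lay above all 8 others, which held for 4.67% of tested genes. The genes were called on these same libraries, so this count describes them and is no separate support. Under placebo the 2 genotypes were within 1.5-fold of each other for 39 of the 45 (86.7%), close to the 91.1% of all tested genes.

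Trpc6, a cation channel opened by diacylglycerol, had the smallest adjusted p of all genes. It stood at 3.66 and 4.29 CPM in WT placebo, at 62.5, 65.2 and 60.6 in WT E2, at 2.75, 2.67 and 2.97 in KO placebo and at 1.62, 2.25 and 3.17 in KO E2. The WT E2 libraries were apart from the 8 others, which all lay under 5 CPM. E2 raised Trpc6 15.8-fold in WT, and the interaction was 4.22 on the log2 scale (SE 0.27, adjusted p = 3.06e-05). Thbs1, encoding the matrix glycoprotein thrombospondin-1, followed with 128 and 122 CPM in WT placebo, 484, 469 and 425 in WT E2, 134, 149 and 145 in KO placebo and 172, 161 and 178 in KO E2 (interaction 1.61, SE 0.12, adjusted p = 8.44e-05). Here the KO E2 libraries also lay above the KO placebo libraries, by a change that was not called (log2 0.26, adjusted p = 0.116). Thbs1 and the further genes below that are not named by the rule in the methods were chosen after their values were seen: Tmem86a, Col8a1, Lifr, St8sia2, Chl1, Limch1, Ccdc3, Mdk, Ptn, Ebf3, Myb, Nup210, Il7r, Ikzf1, Cxcr4, Dck, Cdca7, Xrcc6 and 2810417H13Rik.

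A2m, encoding the broad protease inhibitor alpha-2-macroglobulin, was unlike most positive genes in that the genotypes already differed under placebo. It was at 28.9 and 23.3 CPM in WT placebo, 165, 215 and 129 in WT E2, 3.34, 2.67 and 2.55 in KO placebo and 2.29, 1.96 and 2.99 in KO E2. The highest KO library was thus below the lowest WT library, with or without E2, and the interaction was 2.92 (SE 0.33, adjusted p = 0.00177). It was the 1 called of 25 tested protease and inhibitor genes, against 1.15% of all tested genes. Pi15, another peptidase inhibitor, rose in WT from 1.88 and 2.11 CPM to 28.02, 26.2 and 23.0, while its 6 KO libraries lay between 0.67 and 2.20 (interaction 3.54, SE 0.47, adjusted p = 0.00337).

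Among bone and Wnt genes, Sost and Wnt4 were called. Sost, encoding the osteocyte Wnt inhibitor sclerostin, was at 37.9 and 43.5 CPM in WT placebo, 81.3, 108 and 115 in WT E2, 45.4, 54.2 and 47.8 in KO placebo and 44.5, 39.9 and 38.1 in KO E2. All KO E2 libraries were at or below the lowest KO placebo library, the opposite order to WT (interaction 1.58, SE 0.19, adjusted p = 0.00177). Wnt4, a Wnt ligand, went from 40.2 and 39.8 CPM to 94.1, 82.5 and 92.6 in WT, against 38.4, 32.8 and 38.3 under placebo and 31.9, 29.6 and 31.8 under E2 in KO (interaction 1.40, SE 0.13, adjusted p = 0.000477). Sost was the 1 called gene of 19 tested osteoblast and osteocyte genes and of 11 Wnt antagonists, against 1.15% of all tested genes. Wnt4 was the 1 called of 12 Wnt ligands. The medians of these lists were 0.19, -0.25 and -0.13, against -0.001 over all tested genes.

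The remaining large positive values came from genes that were close to silent in 3 of the 4 groups. Lgi2, a secreted leucine-rich protein, was between 0.168 and 0.592 CPM in the 8 other libraries and at 16.6, 18.6 and 12.6 in WT E2 (interaction 6.16, SE 0.60, adjusted p = 0.000669). Asb4, a SOCS box protein, was at 10.5, 8.46 and 10.7 CPM in WT E2 and at most 0.507 elsewhere (5.98, SE 0.74, adjusted p = 0.00177). Shank2, a scaffold protein known from synapses, reached 9.75, 10.5 and 7.83 CPM in WT E2 and at most 1.18 elsewhere (4.53, SE 0.62, adjusted p = 0.00358). Greb1, a textbook estrogen target, was at 13.6, 12.5 and 10.2 CPM in WT E2 but at 0.215 and 0.068 in WT placebo. Both KO groups of Greb1 were at or under the floor in all but 1 library, so its KO fold cannot be given, and its interaction call (adjusted p = 0.021) was lost without WT placebo 2, WT E2 1, WT E2 2, KO placebo 1 or KO placebo 3 (adjusted p up to 0.177). Sftpa1, a surfactant protein, had 797 counts in WT E2 and 1 in WT placebo, a ratio of 372 (95% counting interval 66.5 to 14700), and 11 and 2 counts in the KO groups (adjusted p = 0.00737). Pgr, the progesterone receptor and another textbook target, had 40 counts in WT E2, 3 in WT placebo and 2 in all KO libraries. That is too few for an interaction to be read (adjusted p = 0.901).

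Several positive genes changed at higher levels. Col8a1, a short-chain collagen, was at 111 and 111 CPM in WT placebo, 271, 349 and 250 in WT E2, 88.7, 98.0 and 87.7 in KO placebo and 79.3, 87.8 and 84.0 in KO E2 (interaction 1.51, SE 0.17, adjusted p = 0.00115). Tmem86a, a lysoplasmalogenase-like membrane protein, went from 39.9 and 30.7 CPM to 109, 103 and 133 in WT, with 6 KO libraries between 24.5 and 37.0 (2.09, SE 0.22, adjusted p = 0.00115). Lifr was at 336 and 301 CPM in WT placebo and 598, 652 and 507 in WT E2, and at 262 to 335 in the 6 KO libraries (0.94, SE 0.18, adjusted p = 0.0285). Its call was lost without WT placebo 2, WT E2 1, WT E2 2, KO placebo 1, KO placebo 3 or KO E2 2 (adjusted p up to 0.132). Bst2, the interferon-induced restriction factor tetherin, went from 17.8 and 19.3 CPM to 41.2, 44.8 and 48.4 in WT (0.98, SE 0.14, adjusted p = 0.00409). In KO, Bst2 was at 13.02, 13.41 and 13.85 CPM with placebo and 16.53, 15.97 and 16.85 with E2, a rise that was not called (log2 0.29). Bst2 was the 1 called of 21 interferon genes, against 1.15% of all tested genes, and the list median was 0.002. The rule also named Amph, amphiphysin (2.66, SE 0.40, adjusted p = 0.00737), and Myo5c, an unconventional myosin (4.002, SE 0.84, adjusted p = 0.0446). The Myo5c call was lost without any 1 of 7 libraries, namely WT placebo 2, the 3 WT E2 libraries, KO placebo 1, KO placebo 2 and KO E2 2 (adjusted p up to 0.132). With limma-voom, Sftpa1, Greb1 and Myo5c were not called.

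**Figure D2:**
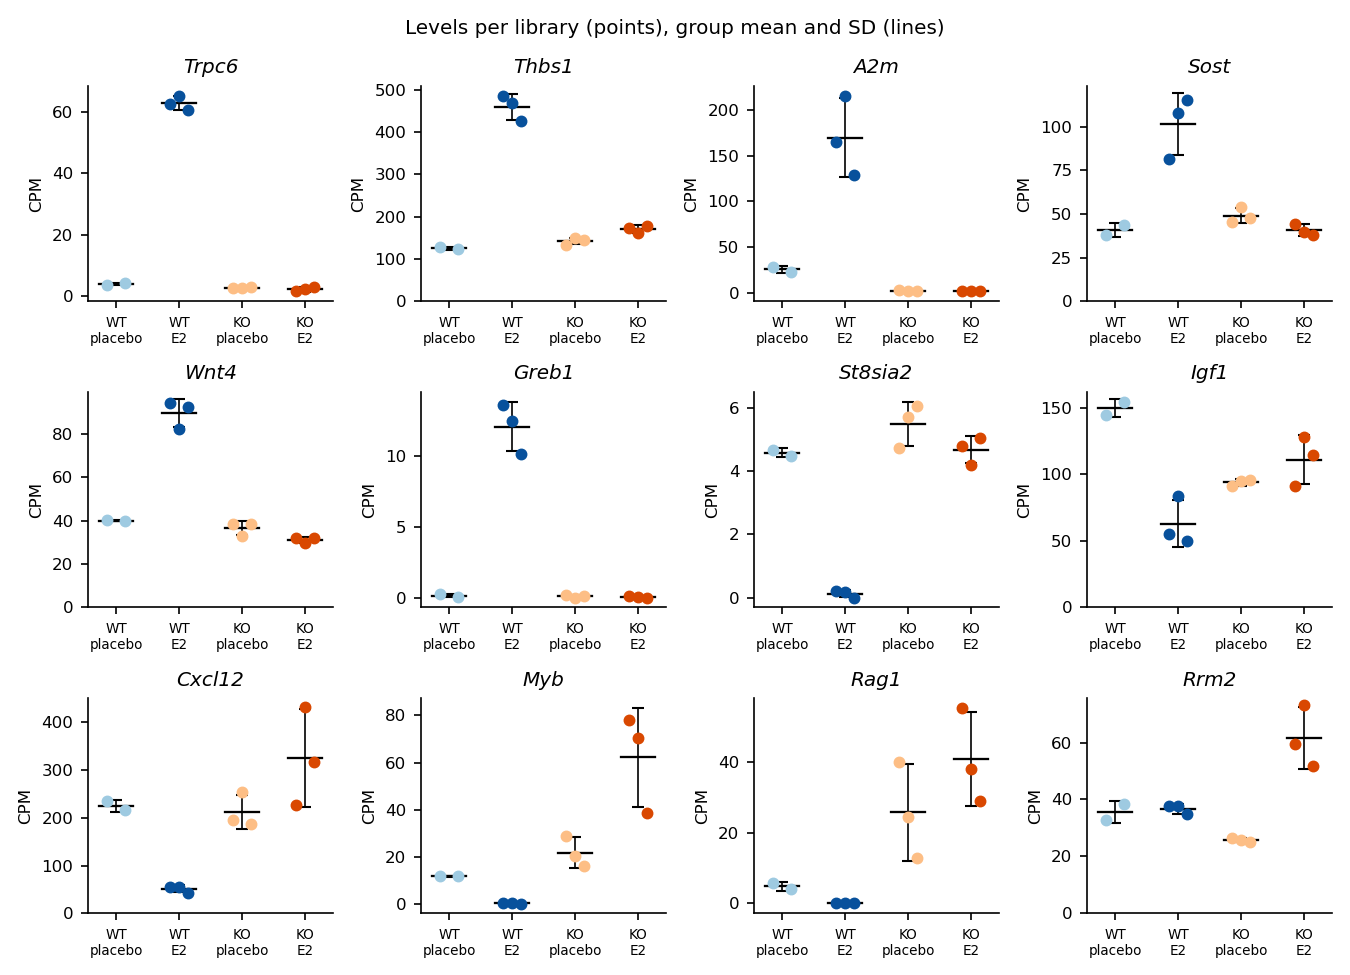
CPM of 12 genes in each library (points), with the mean and SD of each group (lines), on linear axes; E2 is 17β-estradiol. Trpc6, Thbs1, A2m, Sost, Wnt4 and Greb1 stand apart in WT E2; St8sia2, Igf1 and Cxcl12 are lowest in WT E2; Myb and Rag1 are lowest in WT E2 and highest on average in KO E2; Rrm2 is highest in KO E2.

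The 122 negative genes did not share 1 pattern. In 42 the WT effect alone was called, in 52 the KO effect alone, in 12 both with opposite signs, and in 16 neither. All 3 WT E2 libraries lay below all 8 others in 90 of the 122 (4.76% of all tested genes), and all 3 KO E2 libraries lay above all 8 others in 71 (5% of all tested genes). Both held for 55. No negative gene had its WT E2 libraries above or its KO E2 libraries below the others (the latter held for 2.86% of all tested genes), positions that a negative call itself works against. The genes were called on these same libraries, so these counts describe them and are no separate support. Under placebo the genotypes were within 1.5-fold of each other in 70 of the 122 (57.4%), against 91.1% of all tested genes. KO was higher by over 1.5-fold in 28 and lower by as much in 24.

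A first set of negative genes fell in WT and changed little in KO. It held 20 of the 42 genes with a called WT effect alone, those with a KO change under 0.5 in absolute size. None of these 20 is in a blood cell list, but those lists hold only 92 of the 14531 tested genes, so a count of 0 says little. St8sia2, which builds polysialic acid on neural adhesion molecules, was at 4.68 and 4.49 CPM in WT placebo, at 0.197, 0.184 and 0 in WT E2, at 4.74, 5.72 and 6.07 in KO placebo and at 4.80, 4.21 and 5.05 in KO E2. WT E2 alone was near the floor (interaction -4.89, SE 0.55, adjusted p = 0.00115). Chl1, an adhesion molecule of the L1 family, fell in WT from 5.33 and 3.54 CPM to 0.0789, 0.322 and 0.165, with 3.15 to 5.54 in the 6 KO libraries (-4.21, SE 0.52, adjusted p = 0.00177). Limch1, an actomyosin regulator, fell from 155 and 93.0 CPM to 24.5, 23.5 and 22.8 in WT and lay between 128 and 186 in KO (-2.11, SE 0.25, adjusted p = 0.00177).

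Growth factor genes Igf1, Mdk and Ptn were in the same set. Igf1, insulin-like growth factor 1, was at 145 and 154 CPM in WT placebo, 55.3, 83.5 and 50.1 in WT E2, 91.1, 95.1 and 95.6 in KO placebo and 91.3, 128 and 114 in KO E2. The KO placebo libraries lay between both WT groups (interaction -1.49, SE 0.26, adjusted p = 0.0201). Igf1 was the 1 called of 20 tested genes of the IGF and growth hormone list, against 1.15% of all tested genes. The Igf1 call was lost without either WT placebo library, WT E2 1 or KO placebo 1 (adjusted p up to 0.105). Mdk and Ptn, which encode midkine and pleiotrophin, the 2 members of a family of heparin-binding growth factors, both fell in WT. Mdk went from 32.2 and 34.8 CPM to 12, 14.6 and 16.5 (-1.03, SE 0.20, adjusted p = 0.0275), and Ptn from 238 and 274 to 173, 155 and 186 (-0.70, SE 0.15, adjusted p = 0.0437). In KO the 6 libraries of Mdk lay between 24.3 and 34.1 CPM and those of Ptn between 187 and 229. Both calls were lost without WT placebo 2, WT E2 1, WT E2 2 or KO placebo 1, that of Mdk also without KO placebo 3 or KO E2 3 (adjusted p up to 0.108), and that of Ptn also without KO placebo 2, KO E2 1 or KO E2 2 (up to 0.171). Ccdc3 (-0.81, SE 0.13, adjusted p = 0.00999), Ebf3, an EBF family factor of mesenchymal cells (-1.26, SE 0.26, adjusted p = 0.0444), and Fstl1, a secreted BMP antagonist (-0.53, SE 0.11, adjusted p = 0.0429), were called as well, each with its lowest group mean in WT E2. The Ccdc3 call was lost without WT placebo 2 (adjusted p = 0.0562). The Ebf3 call was lost without any 1 library but WT E2 2 and KO E2 1 (up to 0.111), and that of Fstl1 without any 1 but WT E2 3 (up to 0.105). With limma-voom, Ptn, Ebf3 and Fstl1 were not called.

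Cxcl12, the chemokine with which stromal cells hold blood cells in the marrow, fell in WT and had a KO change of 0.61 that was not called (adjusted p = 0.17). It was at 235 and 216 CPM in WT placebo, 54.7, 56.2 and 42.8 in WT E2, 196, 253 and 188 in KO placebo and 226, 432 and 318 in KO E2. The WT E2 libraries lay apart below, while the KO groups overlapped (interaction -2.75, SE 0.32, adjusted p = 0.00243). It was the 1 called of 15 stromal niche genes, against 1.15% of all tested genes, and the list median was -0.11. Its receptor gene Cxcr4 was also called, through KO: 16.3 and 21.8 CPM in WT placebo, 13.8, 13.9 and 15.2 in WT E2, 20.4, 23.0 and 17.2 in KO placebo and 56.4, 67.7 and 41.6 in KO E2 (interaction -1.86, adjusted p = 0.00553).

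A second set held members of blood cell lists. In the list of early B cell genes, 10 of 18 tested members were called, all negative, against 0.84% of all tested genes called negative. The list median was -4.61 with 18 of 18 members below 0, against 7285 of all 14531 tested genes. For the effects within a genotype, 10 of the 18 fell in WT (14 by DESeq2, 0 by limma-voom), against 0.895% of all tested genes. In KO 3 rose (Blnk, Il7r and Bcl11a), against 2.36% of all tested genes, and 0 of these were left without KO E2 2. For the interaction DESeq2 called 16 of the 18 and limma-voom 2; leaving out a library gave 4 (without WT placebo 1) to 12, and leaving out both WT placebo 2 and KO E2 2 gave 6. Vpreb3, part of the pre-B cell receptor assembly, was at 6.19 and 4.42 CPM in WT placebo, 0.0789, 0.322 and 0.124 in WT E2, 14.8, 10.5 and 8.28 in KO placebo and 32.9, 32.0 and 14.8 in KO E2. The lowest KO library was above the highest WT library (interaction -6.18, SE 0.67, adjusted p = 0.00177). Rag1, the recombinase of antigen receptor genes, was at 5.76 and 4.01 CPM in WT placebo and at 0.0395, 0.184 and 0 in WT E2. In KO it ranged from 12.7 to 39.99 with placebo and from 29.0 to 55.3 with E2, which overlap (-6.68, SE 1.04, adjusted p = 0.022). The Rag1 call was lost without any 1 of the 5 WT libraries or KO E2 2 (adjusted p up to 0.107). Rag2, its partner, had 2 counts in WT E2 against 34 in WT placebo, a placebo to E2 ratio of 36.5 (95% counting interval 9.35 to 313), and 0.986 ± 0.433 (SD, n = 2) CPM in WT placebo against 2.79 ± 0.363 in KO placebo and 5.89 ± 1.85 in KO E2 (n = 3 each; adjusted p = 0.00358).

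Both effects, down in WT and up in KO, were called for a few genes, of which Bcl11a and Il7r are in the early B list. Myb, a transcription factor of immature blood cells, was at 12.01 and 11.7 CPM in WT placebo, 0.395, 0.598 and 0.247 in WT E2, 28.8, 20.6 and 16.0 in KO placebo and 77.8, 70.5 and 38.5 in KO E2. All 4 groups were apart from each other, and both effects were called, with opposite signs (interaction -6.35, SE 0.54, adjusted p = 0.00091). Both effects were also called for Bcl11a, a B lineage factor: 1.45 and 2.72 CPM in WT placebo, 0.237, 0.276 and 0.206 in WT E2, 2.75, 3.42 and 1.87 in KO placebo and 5.25, 9.68 and 5.59 in KO E2 (-4.43, SE 0.55, adjusted p = 0.00177). Il7r, the interleukin 7 receptor of B and T progenitors, fell in WT and rose in KO (-4.83, SE 0.70, adjusted p = 0.0103), as did Nup210 (-4.80, SE 0.48, adjusted p = 0.00115). The Il7r call was lost without WT placebo 1 (adjusted p = 0.0579). Ikzf1, the lymphoid factor Ikaros, had a called KO rise, from 26.3, 26.4 and 13.9 CPM to 61.9, 84.7 and 39.95. In WT it fell from 16.1 and 16.0 CPM to 6.08, 7.27 and 5.52. That WT change was not called (log2 -1.35, against 1.48 in KO). The interaction of Ikzf1 was -2.84 (SE 0.46, adjusted p = 0.0208), a call lost without any 1 of the 5 WT libraries (adjusted p up to 0.105).

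Protease and granule genes of the basophil and neutrophil lists were also called. Prss34, a basophil and mast cell protease, had 103 counts in WT placebo and 0 in WT E2, so E2 was at least 25.6-fold lower, and 3 counts in KO placebo against 184 in KO E2, a ratio of 73.6 (95% counting interval 24.8 to 360). Its interaction had an adjusted p of 0.00106. Mcpt8, another basophil protease, was at least 11.2-fold lower with E2 in WT (0 counts against 46) and higher with E2 in KO by a ratio of 55.2 (14.8 to 462), with 92 against 2 counts and an adjusted p of 0.00115. These were the 2 called of 14 tested genes of basophils, mast cells and eosinophils, against 1.15% of all tested genes. The list had a median of -5.17, or -4.05 with groups of 0 counts set at the floor. Fcnb and Ms4a3, of the neutrophil lineage, were the 2 called of 18 neutrophil genes, against 1.15% of all tested genes. The list had a median of -7.15, with 18 of 18 members below 0, against 7285 of all 14531 tested genes. For the interaction, 17 of the 18 had an unadjusted p under 0.05, against 11.6% of all tested genes. DESeq2 called 11 of the 18, and limma-voom 0. Leaving out both WT placebo 2 and KO E2 2 also gave 0. Of the 18, the WT effect was called in 0 by edgeR, 7 by DESeq2 and 0 by limma-voom. For WT, 9 had an unadjusted p under 0.05, which 14% of all tested genes had. Fcnb alone was called in KO, against 2.73% of all tested genes, a call not made without KO E2 2. Fcnb and Ms4a3 had 1 and 2 counts in WT E2, with placebo to E2 ratios of 144 (24.9 to 5760) and 162 (44.1 to 1350), and both had an adjusted p of 0.0356. In KO, Fcnb was at 0, 1.17 and 1.06 CPM with placebo and at 4.63, 25.7 and 10.5 with E2. Both calls were lost without any 1 of the 5 WT libraries, KO placebo 3 or KO E2 3, and that of Ms4a3 also without KO E2 2 (adjusted p up to 0.157 for Fcnb and 0.149 for Ms4a3).

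Other negative genes named by the rule, which are in none of the lists, were Mzb1 (adjusted p = 0.00166), a protein of antibody-making B cells, Tmprss3 (0.00358), a serine protease, Bfsp2 (0.00737), a filament protein known from the lens, Cecr2 (0.0132), a chromatin remodelling factor, and Prss57 (0.0216), a granulocyte protease. Nkg7 (adjusted p = 0.0114) and Il2rb (0.0327), of natural killer and T cells, were the 2 called of 8 tested members of that list, against 1.15% of all tested genes. In WT, Tmprss3 was at least 4.86-fold lower with E2. Of 10 erythroid genes, 0 were called by edgeR, DESeq2 or limma-voom and 0 had an unadjusted p under 0.05. All 10 had an interaction below 0, against 7285 of all 14531 tested genes. The Nkg7 call was lost without WT placebo 2 or WT E2 1 (adjusted p up to 0.0689), that of Cecr2 without WT placebo 1 or any 1 WT E2 library (0.0707), and that of Prss57 without WT placebo 2, any 1 WT E2 library or KO placebo 3 (0.107). The call of Il2rb was lost without any 1 library but KO E2 1 (adjusted p up to 0.118). With limma-voom, Vpreb3, Rag1, Mzb1, Myb, Il7r, Ikzf1, Fcnb, Ms4a3, Prss57, Cecr2, Nkg7 and Il2rb were not called.

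Altogether 17 of the 92 tested members of the blood cell lists were called (18.5%), against 1.15% of all tested genes. They made up 17 of the 122 negative genes, and 10 of the 17 came from the early B list. The lists pooled here are early B, neutrophil, basophil, erythroid, megakaryocyte, T and natural killer cell and MHC class II. Macrophage genes (0 of 15 called, median 0.47) were not in the pool. Of the pooled lists, limma-voom called 2 early B members, 3 basophil members and 0 of the rest. The summed CPM of the early B list was 272 and 165 in WT placebo, 72.5 to 93.7 in WT E2, 214 to 413 in KO placebo and 469 to 804 in KO E2, so that WT E2 and KO E2 each lay apart. The summed neutrophil list was 237 and 528 CPM in WT placebo, 9.51 to 47.7 in WT E2, 1.61 to 812 in KO placebo and 1425 to 5048 in KO E2, the highest being KO E2 2. In KO placebo 1, 8 of the 18 neutrophil genes had 0 counts, and in the WT E2 libraries 0, 5 and 4 of them. KO E2 2 was the highest of its group in 86 of the 122 negative genes (70.5%), against 36.9% of all tested genes. Without it 123 genes were called, 87 of them negative. In these samples of whole tissue, fewer cells of a type and less RNA per cell cannot be told apart, and how the amount of marrow or blood in each sample contributed was not tested.

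**Figure D3:**
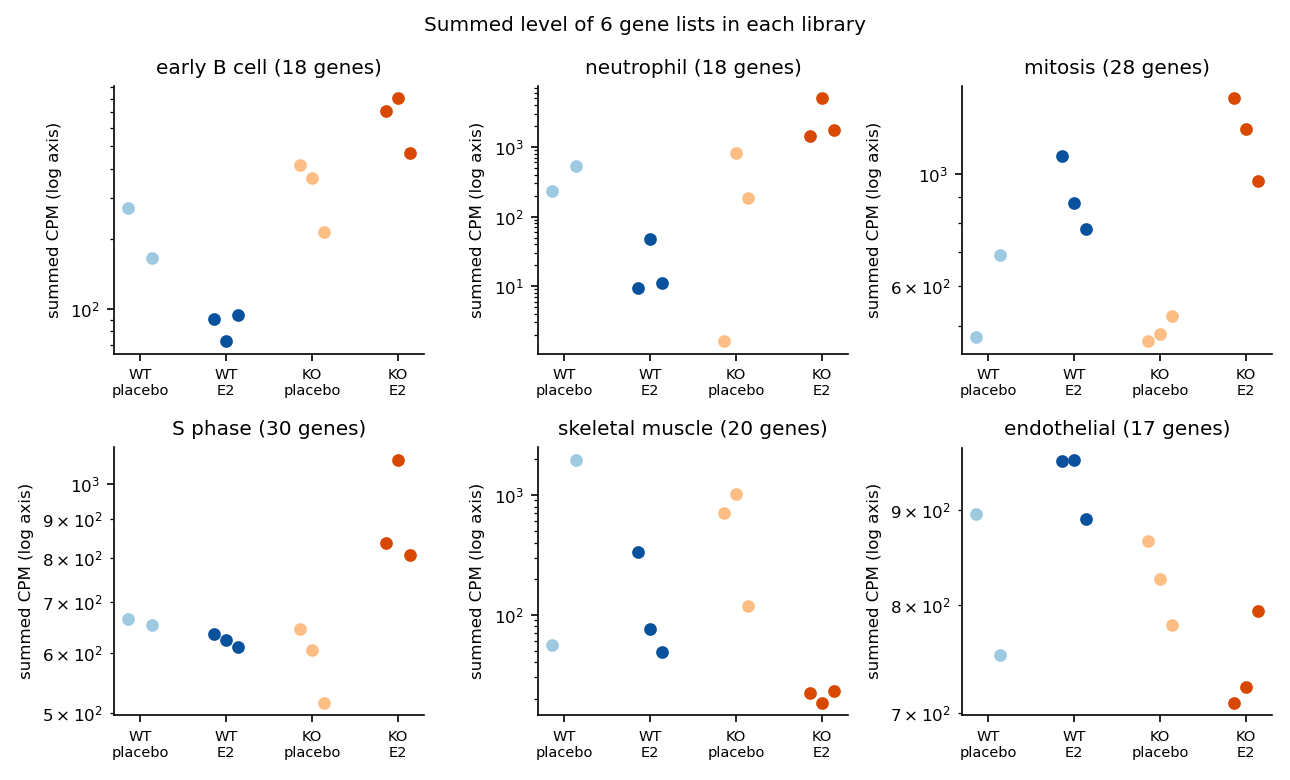
Summed CPM of 6 gene lists in each library (points) by group, on log axes. Early B and neutrophil sums are lowest on average in WT E2 and highest in KO E2; the mitosis sum is above both placebo groups in all 6 E2 libraries; S phase is higher in KO E2 alone; muscle is lowest in KO E2; the endothelial sum lies between 709 and 958 in all libraries.

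A further set of negative genes rose with E2 in KO and had no called WT effect. Rrm2, the regulatory subunit of ribonucleotide reductase, was at 32.8 and 38.2 CPM in WT placebo, 37.6, 37.9 and 34.8 in WT E2, 26.3, 25.7 and 24.9 in KO placebo and 59.4, 73.2 and 51.9 in KO E2. The WT groups overlapped and KO E2 lay apart above (interaction -1.21, SE 0.17, adjusted p = 0.00491). Dck, which salvages deoxynucleosides, was between 18.9 and 23.0 CPM in the 8 other libraries and at 45.1, 50.5 and 39.8 in KO E2 (-1.11, SE 0.17, adjusted p = 0.00737). E2f2, an E2F family activator, was at 15.6 and 14.9 CPM in WT placebo, 10.1, 10.4 and 8.49 in WT E2, 17.6, 20.6 and 11.1 in KO placebo and 48.4, 64.0 and 38.7 in KO E2 (-2.27, SE 0.34, adjusted p = 0.0093), a call lost without WT placebo 2 (adjusted p = 0.0577). Uhrf1, which maintains DNA methylation at replication, was called at -1.33 (SE 0.25, adjusted p = 0.0285). 2810417H13Rik, a PCNA-binding replication protein, was called at -1.25 (SE 0.19, adjusted p = 0.00737), Cdca7 at -1.64 (SE 0.28, adjusted p = 0.0161) and Xrcc6 at -0.79 (SE 0.16, adjusted p = 0.0429). The Cdca7 call was lost without WT placebo 1 or WT E2 1 (adjusted p up to 0.0606), and that of Uhrf1 without WT placebo 1, any 1 WT E2 library, KO placebo 3 or KO E2 2 (0.0963). The Xrcc6 call was lost without any 1 library but KO placebo 1 and KO E2 3 (adjusted p up to 0.115). With limma-voom, Uhrf1 and Xrcc6 were not called.

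Of 30 S phase genes, 3 were called (Rrm2, E2f2 and Uhrf1), against 1.15% of all tested genes, and the median interaction was -0.55. The list had a median WT effect of -0.08, with 0 members called by edgeR, DESeq2 or limma-voom. For WT, 2 had an unadjusted p under 0.05 (14% of all tested genes). The median KO effect was 0.58, with 10 called, all rising, against 2.36% of all tested genes. Without KO E2 2, 4 of the 30 were called in KO. Of 28 mitosis genes, 0 were called for interaction by edgeR, 3 by DESeq2 and 0 by limma-voom, and 12 had an unadjusted p under 0.05, against 11.6% of all tested genes. In KO all 28 rose, with a median of 1.27, and all 28 were called, against 2.36% of all tested genes called rising. Without KO E2 2, 18 were called, against 120 of 14444 tested genes called rising. Without KO placebo 1, 15 were called, against 100 of 14464. In WT edgeR called 0, DESeq2 7 and limma-voom 0. All 28 WT changes were above 0, at a median of 0.66 and an unadjusted p under 0.05, and all 28 were smaller than in KO. The proliferation marker Mki67 was at 52.4 and 71.6 CPM in WT placebo, 111, 97.7 and 63.6 in WT E2, 55.5, 64.2 and 60.4 in KO placebo and 182, 178 and 138 in KO E2 (interaction -0.92, SE 0.29, adjusted p = 0.202). The WT groups overlapped and the KO groups did not. DESeq2 called Mki67 (adjusted p = 0.0361).

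**Figure D4:**
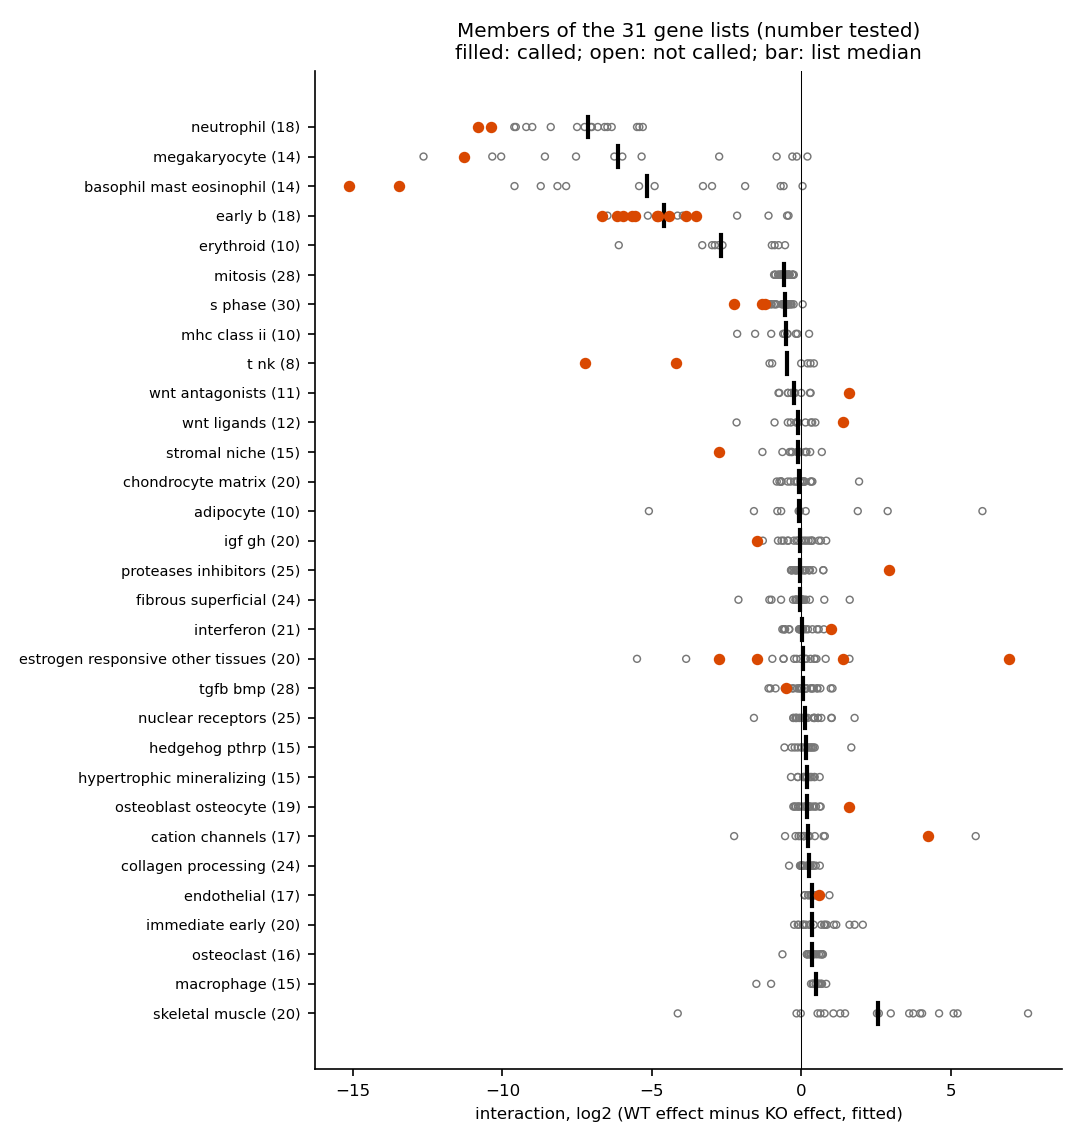
Fitted interaction (log2, WT effect minus KO effect) of each tested member of 31 gene lists, 1 row per list with the number tested, ordered by the list median (bar). Filled points are called genes: early B holds 10 of them, and the neutrophil and basophil lists, among those with the lowest medians, hold 2 each.

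The cartilage program itself showed no called interaction. In the lists of chondrocyte matrix (20 tested), hypertrophic and mineralizing (15), fibrous superficial (24), collagen processing (24) and hedgehog and PTHrP genes (15), 0 members were called by edgeR's quasi-likelihood test, and the medians ran from -0.09 to 0.24. In the same order 1, 3, 1, 3 and 2 members had an unadjusted p under 0.05 (11.6% of all tested genes), DESeq2 called 1, 1, 0, 2 and 0, and limma-voom called 0. Acan, the cartilage proteoglycan, had an interaction of 0.04 (SE 0.43), Sox9, the chondrocyte factor, of -0.14 (SE 0.35), Col2a1 of -0.37 (SE 0.58) and Col10a1, the hypertrophic collagen, of 0.17 (SE 0.34). These standard errors are above the median SE, so moderate differences for these genes were not detectable here. Prg4, the surface lubricant lubricin, was at 29.2 and 85.6 CPM in WT placebo, 101, 83.1 and 54.2 in WT E2, 141, 170 and 106 in KO placebo and 53.1, 66.1 and 70.5 in KO E2. The KO groups did not overlap and the WT groups did, but the interaction was not called (1.61, SE 0.60, adjusted p = 0.32).

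Lists of other cells gave few calls. Egfl7, a secreted endothelial factor, was the 1 called of 17 endothelial genes (0.60, SE 0.12, adjusted p = 0.0438), against 1.15% of all tested genes. The list had 17 of 17 above 0, against 7243 of all 14531 tested genes, and a median of 0.35. The Egfl7 call was lost without any 1 library but WT placebo 2 and KO placebo 3 (adjusted p up to 0.107), with limma-voom and with a replicate block. Osteoclast genes had a median of 0.36 with 0 of 16 called by edgeR, 2 by DESeq2, 0 by limma-voom and 9 at an unadjusted p under 0.05, which 11.6% of all tested genes had. For macrophage genes the median was 0.47, with 0 of 15 called by edgeR, 1 by DESeq2, 0 by limma-voom and 7 at an unadjusted p under 0.05. Skeletal muscle genes had the highest median of the lists, 2.56, with 0 of 20 called by edgeR, 1 by DESeq2, 0 by limma-voom and 1 at an unadjusted p under 0.05. Their summed CPM was 56.1 and 1968 in WT placebo, 337, 75.8 and 48.6 in WT E2, 711, 1011 and 119 in KO placebo and 22.4, 18.4 and 23.1 in KO E2. The KO E2 libraries were the lowest, and the libraries of each placebo group differed widely. Of the list of genes that E2 is known to move in other tissues, 4 of 20 were called, against 1.15% of all tested genes: Greb1 and Wnt4 positive, Cxcl12 and Igf1 negative.

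The count of called genes depended on single libraries. Leaving out each of the 11 in turn gave between 68 calls (without WT E2 1) and 270 (without KO E2 1). The positive calls lay between 27 and 61 and the negative calls between 41 and 221. Of the 167 genes, 53 (24 positive and 29 negative) were called in all 11 of these fits, and no gene of the 167 changed sign in any of them. By the authors' deposited tables of pairwise comparisons, 77 of the 167 genes had an adjusted p under 0.05 in WT alone, 49 in KO alone, 35 in both and 6 in neither. The authors' deposited tables list 497 such genes in WT and 1074 in KO.

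**Figure D5:**
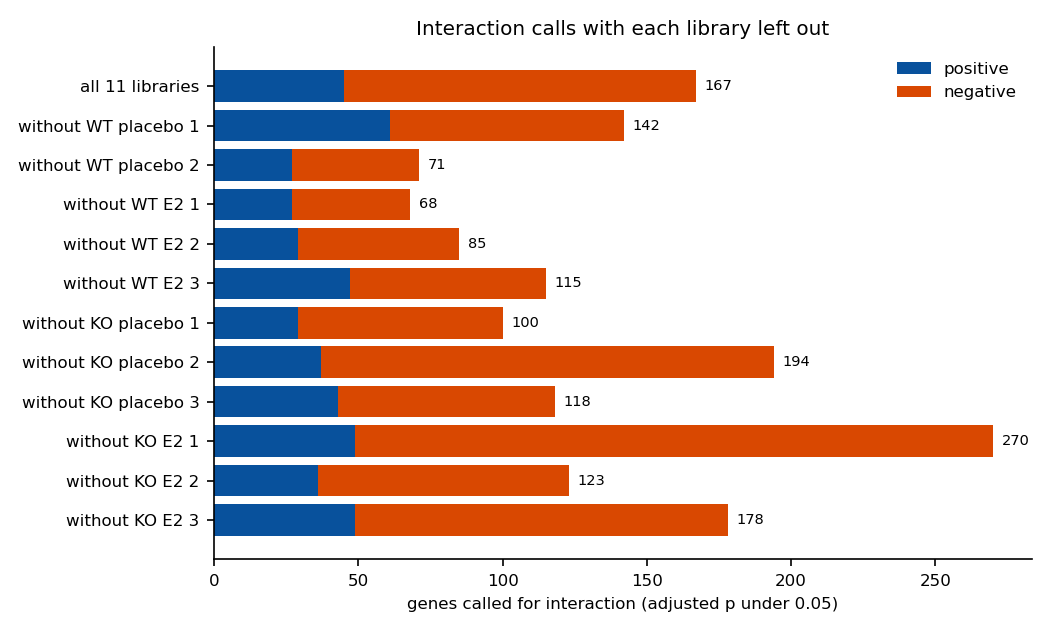
Number of genes called for interaction (x axis, adjusted p under 0.05), positive and negative stacked, with all 11 libraries and with each left out. The count runs from 68 without WT E2 1 to 270 without KO E2 1, and most of that range is in the negative genes.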

How the data were processed

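The submitters' processing notes name bcl2fastq 2.17, TopHat and mm9. Neither the read counter, its annotation nor its strand setting is given in the sources used here, so genes that overlap or share sequence are uncertain. The authors deposited raw whole-number counts per gene symbol for 11 libraries of poly-A RNA, with 0 columns left unmapped. Of 23420 symbols, 5218 had no count and 27 had become dates. The authors also deposited tables with log2 fold changes and adjusted p-values, per the file headers, of which counts of genes are quoted.

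Genes were filtered by filterByExpr of edgeR 4.0.16 in R 4.3.3 (at least 10 counts in enough libraries, 15 in total; 14531 genes with 99.98% of counts). Libraries were scaled by TMM, and a robust quasi-likelihood model was fitted to the 4 group means (7 residual degrees of freedom, coefficient of variation 15.8%). Every adjusted p is Benjamini-Hochberg over all tested genes. SE is the absolute log2 value over the square root of F. Groups of 0 counts are bounded by 3 counts per library, and groups of 1 to 3 counts in all get a ratio with an exact 95% interval. Both cover counting error only. No 2 libraries of a group matched within sampling noise. The fit was checked on counts simulated with the same spread for every gene. Effects were planted in WT E2 only, and in better counted genes only. That check does not cover genes at low levels or groups whose libraries differ widely.

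The comparison, its 31 gene lists and its tests were chosen with earlier results of these data known. The rule for named genes took up to 10 called genes per direction with the largest values at a mean CPM of at least 1 (predicted genes, antigen receptor segments and small RNAs left out), up to 3 called members of each list, and 15 genes always reported: 43 genes, 35 of them called, with 1 further gene that the rule names not reported here. A further 20 were chosen after their values were seen. Between placebo and E2 in KO, the residuals of same-numbered libraries correlated at 0.290, 0.386 and 0.142, so the count with a replicate block stands beside that effect. Alternatives were other thresholds, scalings, filters, DESeq2 1.42.0, limma-voom 3.58.1, a replicate block and leaving out libraries.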

Additional observations from a re-analysis of the deposited data

Results flagged for a closer look

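Each gene here was flagged because the E2 effect differed between WT and KO by the interaction test itself, at an adjusted p under 0.05 in edgeR's quasi-likelihood test. Values are interaction log2, the WT effect minus the KO effect.

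Of the genes that rose in WT, Lgi2 differed by 6.16, Asb4 by 5.98, Shank2 by 4.53, Trpc6 by 4.22, Myo5c by 4.002, Pi15 by 3.54, A2m by 2.92 and Amph by 2.66. Tmem86a differed by 2.09, Thbs1 by 1.61, Sost by 1.58, Col8a1 by 1.51, Wnt4 by 1.40, Bst2 by 0.98 and Lifr by 0.94. Egfl7 differed by 0.60 with neither effect called.

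Of the genes that fell in WT with a small KO change, the interaction was -4.89 for St8sia2, -4.21 for Chl1, -2.11 for Limch1, -1.49 for Igf1, -1.26 for Ebf3, -1.03 for Mdk, -0.81 for Ccdc3, -0.70 for Ptn and -0.53 for Fstl1. For Cxcl12 it was -2.75.

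Of members of the blood cell lists, it was -7.23 for Nkg7, -6.68 for Rag1, -6.18 for Vpreb3, -4.83 for Il7r, -4.43 for Bcl11a and -4.21 for Il2rb. Outside these lists, it was -7.13 for Cecr2, -6.35 for Myb, -4.80 for Nup210, -2.84 for Ikzf1 and -1.86 for Cxcr4.

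Of members of the S phase list, it was -2.27 for E2f2, -1.33 for Uhrf1 and -1.21 for Rrm2. Of further genes with a called KO rise, it was -1.64 for Cdca7, -1.25 for 2810417H13Rik, -1.11 for Dck and -0.79 for Xrcc6.

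Where a group had 3 counts or fewer, the fitted value is no measure of size, and the adjusted p is given. It was 0.00106 for Prss34, 0.00115 for Mcpt8, 0.00166 for Mzb1, 0.00358 for Tmprss3, 0.00358 for Rag2, 0.00737 for Bfsp2, 0.00737 for Sftpa1, 0.021 for Greb1, 0.0216 for Prss57, 0.0356 for Fcnb and 0.0356 for Ms4a3.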

How the results depend on the processing

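The interaction gave 167 calls (45 positive, 122 negative). It gave 395 (111 and 284) at an adjusted p under 0.1, 554 (137 and 417) with DESeq2, 69 (30 and 39) with limma-voom, and 70 (25 and 45) with both WT placebo 2 and KO E2 2 left out, an alternative added after seeing the data. A total of 167 of the 167 genes were among the DESeq2 calls and 67 among those of limma-voom. Other scalings, other filters and a minimum 2-fold difference kept the count within 1.5 times. No called gene changed sign in any setting in which it was tested, and 42 (22 positive, 20 negative) were called in all 19 alternatives other than the fold minimum. The median interaction over all genes ran from -0.012 (DESeq2) to 0.014 (both libraries left out) across settings.

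Same-numbered libraries of different groups correlated in their residuals between -0.203 and 0.386, with a median of 0.098 and 7 of 15 pairs over 0.1. Differently numbered pairs had a median of -0.048, with 3 of 30 over 0.1. Both same-numbered pairs of WT placebo with WT E2 were below 0. Whether the numbers pair the samples cannot be told from these values. With a replicate block the interaction gave 301 calls (55 and 246), the KO effect 629 (542 higher, 87 lower), and the classes 140 for KO alone and 43 for both opposite. The cause was not tested.

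The WT effect (225 calls, 95 higher, 130 lower) gave 448 (191 and 257) at an adjusted p under 0.1, 128 (50 and 78) with the fold minimum, 639 (239 and 400) with DESeq2 and 141 with limma-voom (64 lower). The KO effect (396, 343 higher, 53 lower) gave 714 (571 and 143), 210 (204 and 6) and 937 (683 and 254) in the same order, 31 lower with limma-voom, and 178 (150 and 28) without both named libraries. The classes of WT effect alone (82), KO effect alone (52) and both opposite (12) became 164, 139 and 25 at an adjusted p under 0.1, 216, 202 and 57 with DESeq2, 41, 19 and 4 with limma-voom, and 52, 9 and 4 without both libraries. Lists with a called member numbered 17, and 26 with DESeq2.

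Leaving out each library in turn gave 68 to 270 interaction calls (27 to 61 positive, 41 to 221 negative), 113 to 285 in WT (56 to 113 higher, 57 to 186 lower), 105 to 505 in KO (100 to 480 higher, 4 to 137 lower), classes of 43 to 83, 12 to 131 and 4 to 13, and 11 to 17 lists with a call. Of the 55 named and called genes, 27 kept their call in every alternative in which they were tested.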

Other observations

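Lists not yet described gave few interaction calls. By edgeR's quasi-likelihood test 0 were called among 25 nuclear receptor genes (median 0.13), 10 adipocyte genes (-0.07), 20 immediate early genes (0.35) and 10 MHC class II genes (-0.52). In the same order 4, 3, 2 and 2 had an unadjusted p under 0.05 (11.6% of all tested genes), DESeq2 called 1, 2, 0 and 0, and limma-voom called 0. Fstl1 was the 1 called of 28 TGF-beta and BMP genes (median 0.06), against 1.15% of all tested genes. Trpc6 was the 1 called of 17 cation channel genes (0.23). Immediate early genes, which respond within minutes to stimuli such as tissue handling, had 17 of 20 members above 0, against 7243 of all 14531 tested genes. Their summed CPM was 925 and 1019 in WT placebo, 1007 to 1238 in WT E2, 885 to 1474 in KO placebo and 905 to 963 in KO E2, the highest being KO placebo 3.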
